A study of Mus musculus with 6 samples.

Results

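The TNF superfamily ligands and receptors are the genes studied here, as listed by name: 43 mouse genes, of which 17 encode ligands and 26 encode receptors. A gene was taken from the array probe sets that carry its symbol and no other, and 41 of the 43 were found in this way, each with 1 probe set, among 19938 named genes in all. The ligand genes Tnfsf12 and Tnfsf13 share 1 probe set with a further symbol and were not measured. Expression was measured in bone marrow of 6 mice with disease, 1 Affymetrix mouse gene array per animal. All 6 were lethally irradiated CD45.1+ recipients of CD45.2+ LSK cells, the stem and progenitor fraction, transduced with Meis1 and a GFP-linked HoxA9. The groups differ in that HoxA9: 3 mice received the wild type (HoxA9wt/Meis1) and 3 an altered version named HoxA9AA (HoxA9AA/Meis1), called HoxA9wt and HoxA9AA mice below. Marrow was taken when disease appeared. Age, sex and strain of the animals are not given in the labels, which describe no separation of donor from host cells, so host cells can contribute to every value.

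TNF superfamily ligands are mostly membrane-bound trimers that can be shed, and they act on receptors with cysteine-rich extracellular repeats. Some receptors carry a death domain, which can start apoptosis through FADD and caspase 8, while others recruit TRAF adaptors and activate NF-kappaB, and decoy receptors bind ligand without signalling. In bone marrow the family is known for inflammatory signalling by TNF, for lymphocyte survival and costimulation, and for the RANKL and RANK pair that forms osteoclasts from myeloid precursors.

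Values are log2, so that a step of 1 doubles the signal. As a measure of background, 1027 olfactory receptor genes were used, whose 95th percentile lay between 6.52 and 6.72 on the 6 arrays. A gene is called above background on an array when it exceeds that array's percentile. Probe sets bind with different strength, so levels are compared between arrays and not between genes. Marrow identity was visible in the primary granule genes, with 6 of 6 measured markers (among them Mpo and Elane) above background on every array. Hoxa9 measured 8.36 ± 0.53 (SD, n = 3) in HoxA9wt and 8.76 ± 0.29 in HoxA9AA mice, and Meis1 9.61 ± 0.52 and 9.53 ± 1.04; introduced and endogenous transcripts cannot be told apart here. HoxA9AA replicate 2 resembled the HoxA9wt arrays (r = 0.989 to 0.991; these r run across genes, not replicates), while HoxA9AA replicates 1 and 3 stood apart (0.958 to 0.970).

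Cd27, Tnfrsf18, Tnfsf10 and Tnfrsf11a are among the genes described most fully below. Their promoter windows are shown so that each pattern can be placed on its gene. Each window runs from 250 bases before to 50 bases after the RefSeq gene start, 5′ to 3′ on the gene's strand, in build GRCm38.p6. Capitals mark matches to a PU.1 site, searched as GAGGAA on both strands.
Cd27 (chr6:125236978-125237277, minus strand): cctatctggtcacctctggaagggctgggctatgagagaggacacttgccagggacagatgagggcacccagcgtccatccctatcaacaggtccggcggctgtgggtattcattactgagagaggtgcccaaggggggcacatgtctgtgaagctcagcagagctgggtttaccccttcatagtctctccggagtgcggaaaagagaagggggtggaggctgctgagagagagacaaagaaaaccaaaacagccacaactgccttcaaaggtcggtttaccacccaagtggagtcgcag
Tnfrsf18 (chr4:156026072-156026371, plus strand): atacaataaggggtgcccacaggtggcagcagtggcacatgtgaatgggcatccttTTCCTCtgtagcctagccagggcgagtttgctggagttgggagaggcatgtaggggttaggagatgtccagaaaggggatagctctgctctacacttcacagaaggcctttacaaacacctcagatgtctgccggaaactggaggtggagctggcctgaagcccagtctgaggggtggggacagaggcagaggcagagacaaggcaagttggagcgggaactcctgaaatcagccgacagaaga
Tnfsf10 (chr3:27316827-27317126, plus strand): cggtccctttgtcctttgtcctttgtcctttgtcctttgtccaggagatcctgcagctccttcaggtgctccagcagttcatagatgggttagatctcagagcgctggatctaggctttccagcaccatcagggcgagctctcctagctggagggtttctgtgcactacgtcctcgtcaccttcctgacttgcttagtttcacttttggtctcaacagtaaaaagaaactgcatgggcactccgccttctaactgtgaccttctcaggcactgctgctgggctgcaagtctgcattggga
Tnfrsf11a (chr1:105780473-105780772, plus strand): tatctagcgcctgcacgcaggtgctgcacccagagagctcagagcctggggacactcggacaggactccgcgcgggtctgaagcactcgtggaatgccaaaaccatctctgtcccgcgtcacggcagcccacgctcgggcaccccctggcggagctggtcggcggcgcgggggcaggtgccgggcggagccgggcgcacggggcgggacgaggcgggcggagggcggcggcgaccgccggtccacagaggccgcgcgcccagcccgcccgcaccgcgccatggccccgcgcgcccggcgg
The Tnfrsf11a window is the richest of these in G and C, at 76.7%, against 52.3% for Tnfsf10. Of these windows the 1 of Tnfrsf18 held a PU.1 match, at 194 to 189 bases before the start. Windows were found for 33 of the 43 genes. Among their 37 windows, 35.1% held a PU.1 match, against 28.3% of all 32851 windows, 10.8% held the kappaB decamer, against 8.46%, and 16.2% the Meis half-site TGACAG, against 19.2%. The Runx site TGTGGT was in 16.2%, against 16.8%, and the composite Hox-Meis site TGATTTAT in 0 windows, against 0.977%. Both strands were searched for each motif, and matches of different motifs may overlap. A match describes letters in the window and says nothing of binding.

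More than background was measured for 21 of the 41 members on all 6 arrays. Of 26 measured receptors 17 were above background on all 6 arrays, against 4 of 15 ligands, namely Tnf, Tnfsf14, Tnfsf13b and Tnfsf11. On no array above background were 14 members. They were the ligand genes Lta, Fasl, Tnfsf15, Tnfsf4, Cd40lg, Cd70, Tnfsf8 and Tnfsf18, and the receptor genes Tnfrsf10b, Tnfrsf25, Tnfrsf9, Tnfrsf17, Tnfrsf19 and Eda2r. A further 6 members passed on 1 to 5 arrays. Over all named genes 52.9% were above background on all 6 arrays, against 51.2% of the members. With the 99th percentile of the olfactory receptor genes in place of the 95th, 13 members were above background throughout, and with the 90th 29 were.

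**Figure D1:**
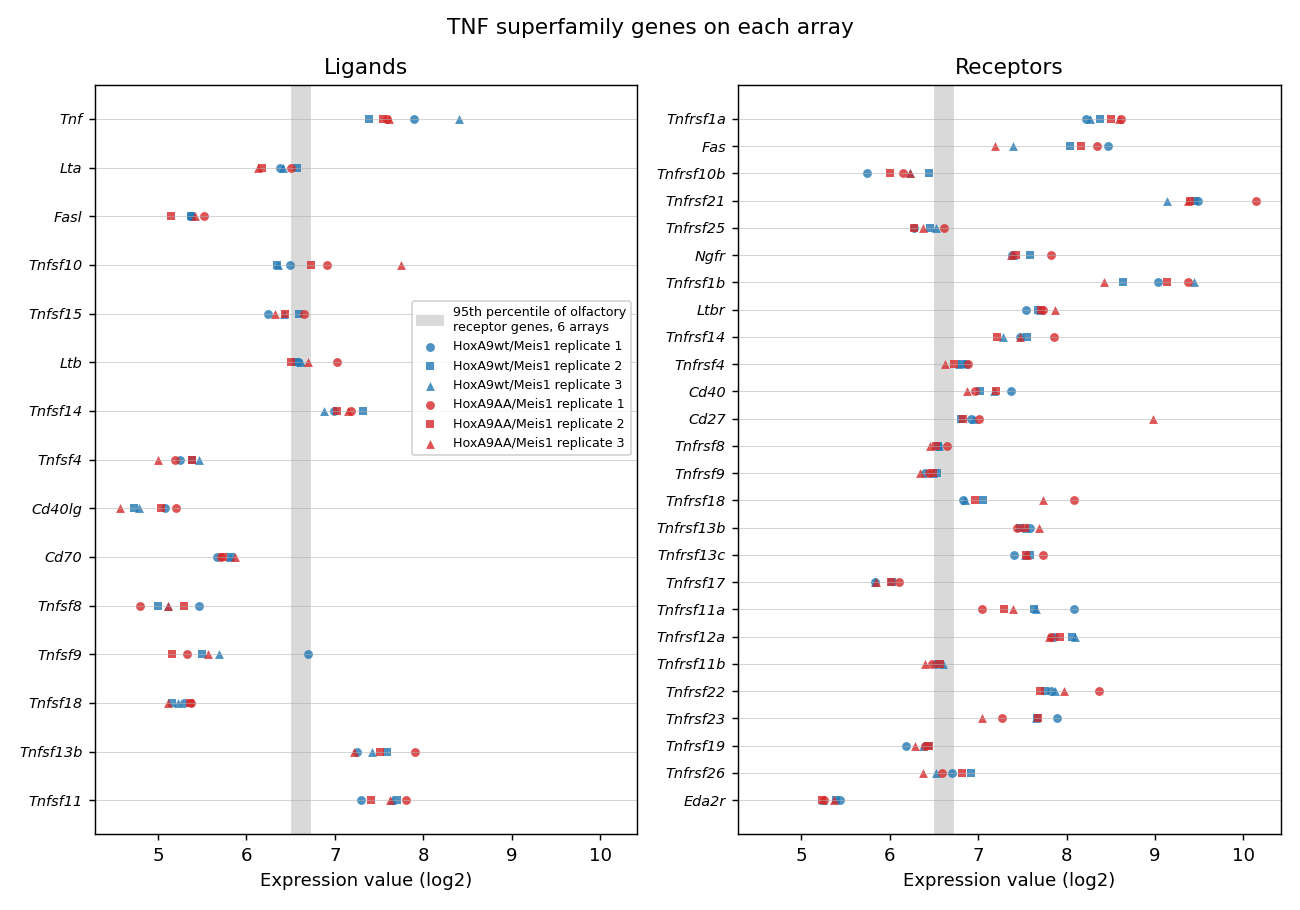
Expression values (log2, horizontal axis) of 15 measured ligand genes and 26 receptor genes on each of the 6 arrays; blue symbols are HoxA9wt/Meis1 mice, red symbols HoxA9AA/Meis1 mice, and the grey band spans the 95th percentiles of the olfactory receptor genes, 6.52 to 6.72. Most ligands lie at or left of the band, and Cd27 of HoxA9AA/Meis1 replicate 3, at 8.98, lies far from the other 5 mice.

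The comparison of the groups asked which members differed between HoxA9AA and HoxA9wt marrow. No member passed the test, and differences ran from −0.61 (Tnfsf9) to 0.73 (Tnfsf10). Of these genes Tnfsf9 was above background on 1 array and Tnfsf10 on 3. Over the 21 members above background on all 6 arrays, differences ran from −0.55 to 0.71. With limma, 0 of 41 members had an adjusted p under 0.05 over all 19938 genes, of which 0 passed too (background 0%). At an unadjusted p under 0.05 there were 4 members, Tnfrsf11a lower and Tnfsf10, Tnfrsf1a and Tnfrsf18 higher in HoxA9AA mice. That is 9.76% of the members, against 6.74% of all genes, so the share is near the background. Without HoxA9wt replicate 1, or without HoxA9wt replicate 3, 1 member was left at this level. The groups did not overlap for 4 members (Tnfsf10, Tnfrsf1a, Ltbr and Tnfrsf11a), 9.76% against 11.4% of all genes. Means were higher in HoxA9AA mice for 21 members, 51.2% against 52.7% of all genes, and lower for 19, and the median difference was 0.0033 over the members and 0.01 over all genes.

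**Figure D2:**
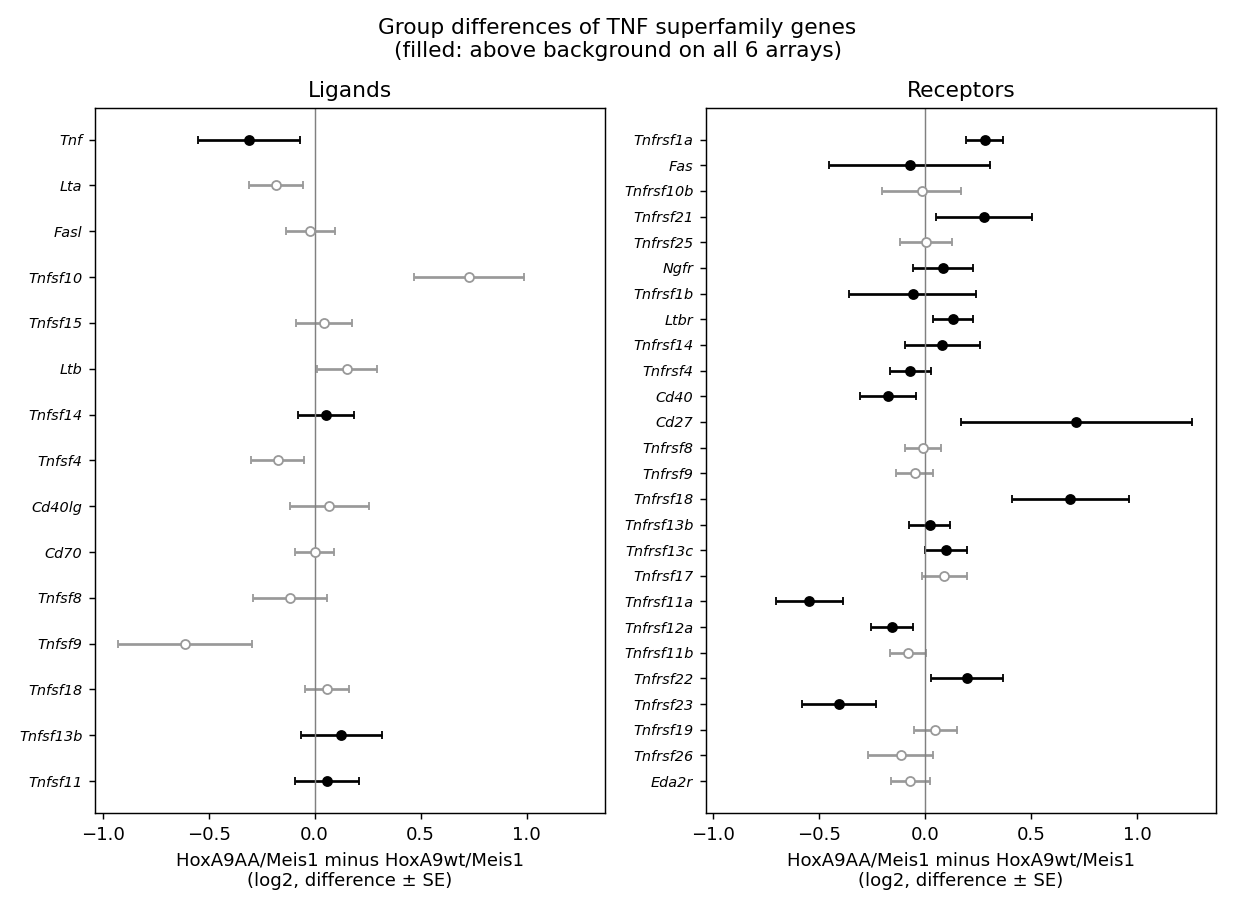
Differences HoxA9AA/Meis1 minus HoxA9wt/Meis1 (log2, horizontal axis, ± SE from limma, 3 mice per group) for each measured ligand and receptor gene; filled points are above background on all 6 arrays and open points are not. Most differences lie near 0; Tnfsf10 (0.73), Cd27 (0.71) and Tnfrsf18 (0.68) lie farthest right and Tnfsf9 (−0.61) and Tnfrsf11a (−0.55) farthest left.

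The farthest values belonged to single mice. For 1 member in HoxA9AA replicate 1 (Tnfrsf18) and 2 in HoxA9AA replicate 3 (Cd27 and Tnfsf10), the value lay more than 1 above the HoxA9wt mean, where 1.7% and 1.44% of all genes did. In HoxA9AA replicate 2 no member did (0.211% of all genes), and no member lay more than 1 below that mean in any HoxA9AA mouse, where 2.81%, 0.181% and 1.85% of all genes did in replicates 1, 2 and 3. In HoxA9wt replicate 1, Tnfsf9 lay more than 1 above the mean of the other HoxA9wt mice, where 0.893% of all genes lay more than 1 away on either side. No member did so in HoxA9wt replicates 2 and 3 (0.657% and 0.572% of all genes). The SD was larger among the HoxA9AA mice for 27 of the 41 members, 65.9% against 70.8% of all genes. The median SD of the members was 0.12 in the HoxA9wt and 0.18 in the HoxA9AA group.

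Among the ligands, Tnfsf10, which encodes the apoptosis-inducing ligand TRAIL, had the largest difference towards higher values. It measured 6.49, 6.35 and 6.36 in HoxA9wt replicates 1, 2 and 3, and 6.91, 6.73 and 7.75 in HoxA9AA replicates 1, 2 and 3. The 3 HoxA9wt mice were not above background and the 3 HoxA9AA mice were, without overlap, and HoxA9AA replicate 3 was the highest. Against background in place of the HoxA9wt values, the mean of the HoxA9AA mice was at least 1.45-fold higher. This bound holds for the mean and not for each mouse. HoxA9AA replicates 1 and 2, at 6.91 and 6.73, lay close to the background of the HoxA9wt arrays, 6.52 to 6.65. The measured difference was 0.73 ± 0.26 (SE; limma, adjusted p = 0.731) and 0.42 without HoxA9AA replicate 3. Tnfrsf10b, the TRAIL receptor with a death domain, lay between 5.75 and 6.45 on the 6 arrays, at or below background throughout. Of the mouse decoy receptors for TRAIL, Tnfrsf22 measured 7.76 to 7.87 in HoxA9wt mice and 8.37, 7.70 and 7.97 in HoxA9AA replicates 1, 2 and 3. Its neighbour Tnfrsf23 measured 7.65 to 7.89 in HoxA9wt mice and 7.27, 7.68 and 7.04 in HoxA9AA mice. In HoxA9AA replicates 1 and 3, Tnfrsf22 was thus above and Tnfrsf23 below all HoxA9wt mice, and HoxA9AA replicate 2 lay near them in both genes. The differences were 0.20 ± 0.17 and −0.41 ± 0.18 (SE; limma, adjusted p = 0.874 and 0.731). These genes lie side by side on chromosome 7 with Tnfrsf26, a related receptor gene, which measured 6.38 to 6.92 and was above background on 3 arrays. How far such related genes share signal on their probes was not tested.

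Tnf, which encodes the inflammatory cytokine of that name, varied among the HoxA9wt mice and hardly among the HoxA9AA mice. It measured 7.89, 7.39 and 8.40 in HoxA9wt replicates 1, 2 and 3, and 7.59, 7.55 and 7.61 in the HoxA9AA mice. The HoxA9AA values lay within the HoxA9wt range, and the difference was −0.31 ± 0.24 (SE; limma, adjusted p = 0.848). Of its receptors, Tnfrsf1a, which carries a death domain, measured 8.22, 8.38 and 8.26 in HoxA9wt and 8.61, 8.50 and 8.59 in HoxA9AA replicates 1, 2 and 3. Every HoxA9AA mouse, replicate 2 included, was above every HoxA9wt mouse, by a small step. The difference was 0.28 ± 0.09 (SE), a 1.21-fold difference with an adjusted p of 0.731 (limma). Tnfrsf1b, the receptor without a death domain, measured 8.64 to 9.44 in HoxA9wt and 8.42 to 9.37 in HoxA9AA mice, with overlap. The neighbours of Tnf on chromosome 17 lay close to background: Lta, which encodes lymphotoxin alpha, measured 6.13 to 6.57, and Ltb, its membrane-anchoring partner, 6.50 to 7.02, with its highest value in HoxA9AA replicate 1.

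The lymphotoxin and LIGHT receptors differed little between the group means, by 0.13 for Ltbr and 0.08 for Tnfrsf14. Ltbr, the lymphotoxin beta receptor, measured 7.54, 7.68 and 7.70 in HoxA9wt and 7.73, 7.71 and 7.87 in HoxA9AA mice, where the nearest mice of the groups differed by the last decimal given. Tnfrsf14, which binds LIGHT, measured 7.21 to 7.86 and the LIGHT gene Tnfsf14 6.88 to 7.32, and both overlapped between the groups.

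The other death domain receptors overlapped between the groups. Fas measured 8.47, 8.04 and 7.40 in HoxA9wt replicates 1, 2 and 3 and 8.34, 8.16 and 7.19 in HoxA9AA replicates 1, 2 and 3, so that 1 mouse of each group was low. Its ligand gene Fasl lay between 5.15 and 5.52, not above background. Tnfrsf21, also known as death receptor DR6, measured 9.49, 9.45 and 9.14 in HoxA9wt mice and 10.14, 9.40 and 9.37 in HoxA9AA mice, with HoxA9AA replicate 1 the highest. Ngfr, the low-affinity neurotrophin receptor, measured 7.37 to 7.82. Tnfrsf25, the receptor for TL1A, lay between 6.28 and 6.61 and Tnfsf15, which encodes TL1A, between 6.25 and 6.65, neither above background on any array.

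Among the costimulatory receptors, Cd27 and Tnfrsf18 had HoxA9AA mice far above the rest. Cd27, the receptor for CD70, is found on lymphocytes and on subsets of haematopoietic progenitors. It measured 6.92, 6.81 and 6.95 in HoxA9wt replicates 1, 2 and 3, and 7.01, 6.83 and 8.98 in HoxA9AA replicates 1, 2 and 3. HoxA9AA replicate 3 alone was high, 2.09 above the HoxA9wt mean, and the other 5 mice lay within a narrow range. The difference of 0.71 ± 0.55 (SE; limma, adjusted p = 0.846) rested on this mouse, without which it was 0.03; without HoxA9AA replicate 2 it was 1.10. The ligand gene Cd70 lay between 5.67 and 5.87, not above background. Ltbr and Tnfrsf1a follow Cd27 on chromosome 6, each with 1 coding gene between. In HoxA9AA replicate 3 they were 0.23 and 0.30 above the HoxA9wt mean.

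Tnfrsf18 encodes GITR, a receptor of regulatory and activated T cells. It measured 6.83, 7.06 and 6.85 in HoxA9wt replicates 1, 2 and 3, and 8.09, 6.97 and 7.73 in HoxA9AA replicates 1, 2 and 3. HoxA9AA replicates 1 and 3 were above every HoxA9wt mouse, and HoxA9AA replicate 2 lay among them. The difference was 0.68 ± 0.28 (SE; limma, adjusted p = 0.731) and 0.44 without HoxA9AA replicate 1. Tnfrsf4, which encodes the costimulatory receptor OX40 and lies beside Tnfrsf18 on chromosome 4, measured 6.78 to 6.86 in HoxA9wt and 6.63 to 6.89 in HoxA9AA mice. The ligand gene Tnfsf18 lay between 5.12 and 5.38, not above background.

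The T and NK cell marker lists averaged more in each HoxA9AA mouse than in the HoxA9wt mice, and in replicates 1 and 3 mostly through 1 gene of each list. Averaged over 11 measured T cell markers, the level was 6.42 to 6.56 in HoxA9wt mice and 6.85, 6.60 and 6.73 in HoxA9AA replicates 1, 2 and 3, and 5 to 7 of the 11 were above background on an array. Cd3d, Cd5 and Trat1 were above background on no array, and Cd3e, a chain of the T cell receptor complex, measured 7.07 to 7.21 in HoxA9wt and 7.53, 7.28 and 7.09 in HoxA9AA mice. Of the T cell markers Thy1 was high in HoxA9AA replicates 1 and 3, at 10.50 and 10.72 against 6.86 to 7.22 in the other 4 mice. Without Thy1 the other 10 markers averaged 6.38 to 6.50 in HoxA9wt mice and 6.49, 6.54 and 6.33 in HoxA9AA replicates 1, 2 and 3. In HoxA9AA replicate 2, Cd3e and Cd28 alone of the 11 markers lay above every HoxA9wt mouse, and 0 lay below. Cd28 measured 7.29, 8.35 and 7.27 in HoxA9wt and 7.09, 8.97 and 6.95 in HoxA9AA replicates 1, 2 and 3. Averaged over 9 NK cell markers, the level was 5.98 to 6.10 in HoxA9wt and 6.52, 6.19 and 6.23 in HoxA9AA mice, 2 or 3 of the 9 were above background on an array, and 6 of the 9, Ncr1 and Klrb1c included, were above background on none. Nkg7, a cytotoxic granule gene, measured 11.87 and 10.94 in HoxA9AA replicates 1 and 3 against 7.39 to 8.64 in the other 4 mice, and without it the other 8 NK markers averaged 5.72 to 5.80 in HoxA9wt mice and 5.85, 5.97 and 5.64 in HoxA9AA mice. Stem and progenitor markers averaged 6.66 to 7.10 in HoxA9wt and 7.71, 6.94 and 7.63 in HoxA9AA mice. Above every HoxA9wt mouse lay 7, 1 and 6 of the 9 markers in HoxA9AA replicates 1, 2 and 3. Below every HoxA9wt mouse lay 0, 3 and 1 of them, with Gata2, Hlf and Sox4 in replicate 2 and Slamf1 in replicate 3. Kit measured 9.96 and 10.49 in HoxA9AA replicates 1 and 3 against 7.54 to 8.63 in the other 4 mice. Cd34 measured 10.14, 7.36 and 9.16 in HoxA9wt and 10.40, 9.16 and 10.33 in HoxA9AA mice. Mecom, Slamf1 and Procr were above background on no array. The part of these cell types in the Cd27 and Tnfrsf18 values was not tested. In bulk marrow, fewer cells of a type and less RNA per cell cannot be told apart.

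**Figure D3:**
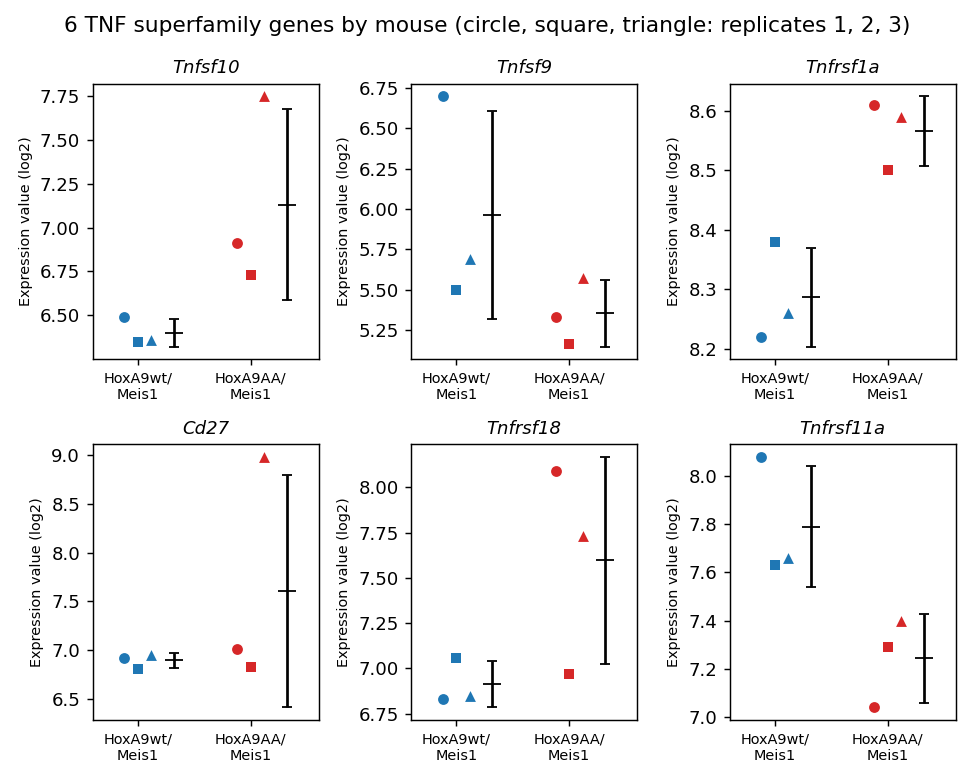
Expression values (log2, vertical axis, a separate range for each gene) of the 6 members with an unadjusted p under 0.05 or with a mouse more than 1 away from the HoxA9wt/Meis1 mean (for a HoxA9wt/Meis1 mouse, the mean of the other HoxA9wt/Meis1 mice); blue symbols are HoxA9wt/Meis1 mice, red symbols HoxA9AA/Meis1 mice, and bars show each group's mean ± SD (n = 3). Tnfsf10, Tnfrsf1a and Tnfrsf11a separate the groups in all 3 mice. Cd27 is high in 1 HoxA9AA/Meis1 mouse (8.98) and Tnfrsf18 in 2 (8.09 and 7.73).

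The remaining costimulatory genes were mostly near background. Tnfsf9, the ligand of the activation-induced receptor Tnfrsf9, measured 6.70 in HoxA9wt replicate 1, the only array on which it was above background, 5.50 and 5.69 in HoxA9wt replicates 2 and 3, and 5.33, 5.16 and 5.57 in the HoxA9AA mice. The difference of −0.61 ± 0.32 (SE; limma, adjusted p = 0.753) shrank to −0.24 without HoxA9wt replicate 1. Tnfrsf9 lay between 6.34 and 6.54. Cd40, the receptor by which T cells activate B cells and myeloid cells, measured 7.02 to 7.37 in HoxA9wt and 6.87 to 7.20 in HoxA9AA mice, and its ligand gene Cd40lg 4.57 to 5.20. Tnfrsf8, which encodes CD30, lay between 6.46 and 6.65, its ligand gene Tnfsf8 between 4.80 and 5.46, and the OX40 ligand gene Tnfsf4 at 5.46 or less.

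The measured genes of the BAFF and APRIL system, which keeps B cells and plasma cells alive, overlapped between the groups. The APRIL gene Tnfsf13 was not measured. Tnfsf13b, which encodes BAFF, measured 7.25 to 7.59 in HoxA9wt and 7.91, 7.51 and 7.22 in HoxA9AA replicates 1, 2 and 3. Its receptor genes Tnfrsf13c and Tnfrsf13b measured 7.41 to 7.73 and 7.44 to 7.69 over the 6 mice, and Tnfrsf17, the plasma cell receptor BCMA, 5.84 to 6.11, not above background. Of 13 measured B cell markers 8, among them Cd79a, Ms4a1 and Ebf1, were above background on no array. Cd79b, Pax5, Vpreb3 and Igll1 were above background on all 6 arrays, and Vpreb1 on 3. Cd79b measured 7.57 to 8.46 in HoxA9wt and 7.46, 8.13 and 9.37 in HoxA9AA replicates 1, 2 and 3. Vpreb3 measured 6.67 to 6.78 in HoxA9wt and 7.60, 7.16 and 7.20 in HoxA9AA mice, without overlap. The list averaged 6.14 to 6.23 in HoxA9wt and 6.33 to 6.38 in HoxA9AA mice. Whether B cells contribute to the BAFF receptor values was not tested.

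Tnfrsf11a encodes RANK, the receptor on osteoclast precursors and dendritic cells, and it had the smallest unadjusted p of the members. It measured 8.08, 7.63 and 7.66 in HoxA9wt replicates 1, 2 and 3, and 7.04, 7.29 and 7.40 in HoxA9AA replicates 1, 2 and 3. Every HoxA9AA mouse was below every HoxA9wt mouse, replicate 2 included. The difference was −0.55 ± 0.16 (SE; limma, adjusted p = 0.731), a 1.46-fold difference, and it stayed between −0.63 and −0.40 when any 1 array was left out. Its ligand gene Tnfsf11, which encodes RANKL, measured 7.30 to 7.70 in HoxA9wt and 7.41 to 7.80 in HoxA9AA mice. Tnfrsf11b, the soluble decoy osteoprotegerin that captures RANKL, lay between 6.40 and 6.60, at the edge of background. Thus the receptor alone of these genes separated the groups, and a difference between its change and theirs was not tested. Monocyte and macrophage markers were lower on average in 2 of the same mice. Their average over 13 measured markers was 9.75 to 10.33 in HoxA9wt and 8.45, 9.89 and 8.86 in HoxA9AA replicates 1, 2 and 3. Below every HoxA9wt mouse lay 12, 4 and 10 of the 13 markers in HoxA9AA replicates 1, 2 and 3, the 4 of replicate 2 being Ccr2, Ctss, Msr1 and Mrc1. Tnfrsf11a was 0.75, 0.50 and 0.39 below the HoxA9wt mean in these mice. Averaged over 8 dendritic cell markers, the level was 6.81 to 7.12 in HoxA9wt and 6.64, 6.99 and 7.12 in HoxA9AA replicates 1, 2 and 3. The part of monocytes and dendritic cells in the Tnfrsf11a values was not tested.

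The last receptors differed little. Tnfrsf12a, which encodes the tissue repair receptor Fn14, measured 7.86 to 8.10 in HoxA9wt and 7.80 to 7.93 in HoxA9AA mice, a difference of −0.16 ± 0.10 (SE; limma, adjusted p = 0.806). Tnfrsf19 lay between 6.19 and 6.45 and Eda2r, a receptor for an ectodysplasin form, between 5.24 and 5.44, neither above background.

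Downstream of the receptors, 40 of 44 listed genes for adaptors, kinases, ubiquitin editors, NF-kappaB subunits and ligand processing were measured, and 37 were above background on all 6 arrays. None passed the adjusted test (0 of 40). At an unadjusted p under 0.05 there were 3, all lower in HoxA9AA mice, which is 7.5% against 2.59% of all genes in that direction, and 0 higher, against 4.15%. The count of 3 is small: it was 1 without HoxA9wt replicate 1, HoxA9wt replicate 3 or HoxA9AA replicate 3, and 11, in both directions together, without HoxA9AA replicate 2. Means were higher for 21 and lower for 19 genes, and the median difference was 0.02, against 0.01 over all genes.

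The 3 genes were Cflar, Birc3 and Rel. Cflar encodes FLIP, which blocks caspase 8 at death receptors. It measured 10.18, 10.09 and 10.18 in HoxA9wt and 9.74, 9.75 and 9.55 in HoxA9AA replicates 1, 2 and 3, so that all HoxA9AA mice lay below all HoxA9wt mice. The difference of −0.47 ± 0.09 (SE; limma, adjusted p = 0.731) belonged to the brightest of 3 probe sets for the gene, while the other two differed by −0.01 and −0.04. Birc3, which encodes the ubiquitin ligase cIAP2 of the TNF receptor complex, measured 9.77, 9.62 and 9.82 in HoxA9wt and 8.54, 9.53 and 8.95 in HoxA9AA mice. The NF-kappaB subunit gene Rel measured 10.16, 10.08 and 10.40 in HoxA9wt and 8.44, 9.97 and 9.47 in HoxA9AA mice. In both genes HoxA9AA replicate 2 lay just below the HoxA9wt mice and HoxA9AA replicate 1 was lowest. Their differences were −0.73 ± 0.24 and −0.92 ± 0.37 (SE; limma, adjusted p = 0.731 for both), and that of Rel was −0.49 without HoxA9AA replicate 1. The monocyte marker averages given above were lowest in HoxA9AA replicates 1 and 3, and the part of monocytes in Birc3 and Rel was not tested.

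Other pathway genes lay on both sides. The NF-kappaB subunit gene Rela measured 9.32, 9.19 and 9.45 in HoxA9wt and 9.52, 9.48 and 9.90 in HoxA9AA replicates 1, 2 and 3, higher without overlap, with a difference of 0.31 ± 0.14 (SE; limma, adjusted p = 0.731) that was 0.18 without HoxA9AA replicate 3. Nfkbia, the inhibitor of NF-kappaB that NF-kappaB itself induces, measured 8.63 to 8.86 in HoxA9wt and 8.63, 8.57 and 8.16 in HoxA9AA mice. The sheddase gene Adam10 measured 10.70 ± 0.27 (SD) and, in HoxA9AA mice, 9.94, 10.60 and 10.22, with overlap. Groups did not overlap for 8 of the 40 genes, 4 in each direction, or 10% each, against 6.6% of all genes towards higher and 4.8% towards lower values.

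**Figure D4:**
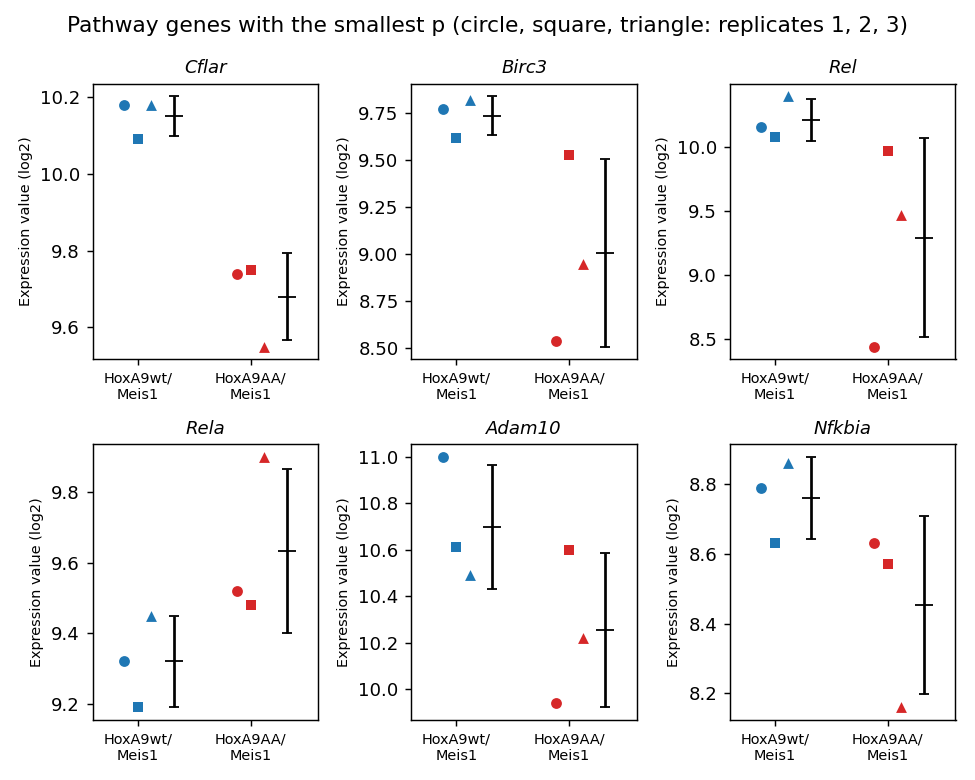
Expression values (log2, vertical axis, a separate range for each gene) of the 6 pathway genes with the smallest unadjusted p on each of the 6 arrays; blue symbols are HoxA9wt/Meis1 mice, red symbols HoxA9AA/Meis1 mice, and bars show each group's mean ± SD (n = 3). Cflar is lower in all 3 HoxA9AA/Meis1 mice (9.55 to 9.75 against 10.09 to 10.18), while Birc3 and Rel are low mainly in replicates 1 and 3.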

How the data were processed

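RNA of whole bone marrow cells of 6 mice was hybridised to 1 array per mouse. The authors deposited log2 expression values, for which the submitters' processing notes name RMA and the R package oligo. Versions and build: not given in the sources used here. Of 35556 probe sets, 21789 carry 1 symbol in the platform annotation, 1621 several and 12146 are not listed. For genes with several probe sets the brightest by mean was used. Array annotation coordinates were not used; promoter windows came from RefSeq tables of GRCm38.p6. The test was limma's (version 3.58.1, R 4.3.3; lmFit, then eBayes; two-sided; Benjamini-Hochberg over 19938 genes, threshold 0.05), with no filter on low values, and tested on simulated data. The p-values set each group difference against the spread between animals within groups, pooled over both groups and moderated across genes by eBayes. The number of arrays limits the precision.

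The members and gene lists were chosen with earlier results of these data known. Fuller values were given for members with 1 or more arrays above background and an unadjusted p under 0.05, non-overlapping groups with a difference of at least 0.3, or an array more than 1 from the HoxA9wt/Meis1 mean (for a HoxA9wt/Meis1 array, from the mean of the others of its group); for the 6 pathway genes of smallest p; and for Hoxa9 and Meis1. Further members and markers are named beside them. Other settings were the replicate number as a block, each array left out, a filter, array weights, the mean of probe sets, median centring, quantile normalization, and robust eBayes with a trend. Figures were drawn with matplotlib 3.10.9.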

Additional observations from a re-analysis of the deposited data

How the results depend on the processing

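Of the 6 members and 6 pathway genes described most fully, every difference kept its sign and stayed short of an adjusted p under 0.05 in 155 of 155 comparisons with other settings; the filter left Tnfsf9 out. The count of genes called over the whole array was 0 with all 6 arrays under every setting and 0 to 48 when 1 array was left out (48 without HoxA9AA replicate 2, and 1 without HoxA9wt replicate 3), and the count of members called was 0 throughout. The count of members with an unadjusted p under 0.05 was 4, and 2 with the replicate number as a block. Same-numbered mice of the 2 groups deviated from their group means with correlations of −0.208, −0.103 and −0.013 over genes. For differently numbered mice the correlations ran from −0.16 to 0.239. The labels give no pairing, and with 3 mice per group these correlations cannot show whether same-numbered mice shared a batch. The count of members at this level ranged from 1 to 5 when 1 array was left out. It was 3 among the members above background on all 6 arrays, a restriction chosen after seeing the data. The pathway count of 3 ranged from 1 to 11 when 1 array was left out. The cause of these shifts was not tested. The 21 members above background on all 6 arrays became 13 with the 99th percentile and 29 with the 90th. Median centring moved the split of genes with an unadjusted p under 0.05 from 828 higher and 516 lower to 1027 and 392, and the median difference of all genes from 0.01 to 0.035. Below background, a difference cannot be read as a fold.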
